A study of Mus musculus with 6 samples.

Results

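The collagen genes of hyaline cartilage were examined in sorted cartilage cells of young mice. The set held 8 genes, *Col2a1*, *Col9a1*, *Col9a2*, *Col9a3*, *Col10a1*, *Col11a1*, *Col11a2* and *Col27a1*, taken by name from the 54532 genes of the deposited count table. All 8 had counts in all 6 libraries and passed the filter on low counts, as did 14801 genes in all. The study asked how the RNA of cells that express *Gli1*, a transcription factor and target of Hedgehog signalling, differed from that of the remaining cartilage cells.

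The mice were *Gli1-CreERT2; tdTomato* animals on a C57BL/6 background, 1 month old and harvested 24 h after tamoxifen (TAM). In these mice the *Gli1* locus drives a Cre recombinase that works only in the presence of TAM, and Cre then switches on the red protein tdTomato for good. Cells lacking CD45, CD31 and Ter119, the surface proteins of blood, endothelial and red cells, were sorted into tdTomato+ (Gli1+) and tdTomato- (Gli1-) fractions, and both fractions therefore carried the transgenes and had seen TAM. RNA was sequenced from 3 libraries of each fraction. The labels gave the tissue as growth plate, whereas the study's account of the RNA sequencing names costal cartilage, which its methods describe as cut from rib cages and freed by protease and collagenase. The study names the libraries of a fraction biological replicates, but how many mice went into each was not given in the sources used here, so the p-values below measure the spread between these libraries, and in RNA from sorted populations fewer cells of a type and less RNA per cell cannot be told apart.

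Cartilage owes its tensile strength to thin fibrils. Type II collagen, a trimer of the *Col2a1* chain, makes up most of the fibril. Type XI collagen, built from the *Col11a1* and *Col11a2* chains together with a product of *Col2a1*, forms the core that limits fibril width. Type IX collagen, made of 1 chain each from *Col9a1*, *Col9a2* and *Col9a3*, decorates the fibril surface and links it to other matrix. Type X collagen, a trimer of the *Col10a1* chain, is a short network-forming collagen made by hypertrophic chondrocytes, the enlarged cells at the end of the growth plate sequence. Type XXVII collagen, a trimer of the *Col27a1* chain, is a fibrillar collagen of developing cartilage.

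What the 8 chains share is a collagen triple helix, in which glycine recurs at a fixed spacing. In GENCODE M21 the longest run of Gly-X-Y triplets was 339 triplets in the *Col2a1* product and 338 in those of both *Col11a1* and *Col11a2*. All 3 type IX chains had a longest run of 113 triplets, within 6 runs of at least 5 triplets each. The *Col10a1* product had the shortest, at 60 triplets within 9 runs, and *Col27a1* reached 217. The first 45 bases that code for the longest run are given for the fibril chains and for 1 chain each of types IX, X and XXVII, since these genes carry the comparisons that follow, with the glycine codons in capitals.
Col2a1: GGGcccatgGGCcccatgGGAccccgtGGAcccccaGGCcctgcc
Col11a1: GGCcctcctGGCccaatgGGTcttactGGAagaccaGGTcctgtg
Col11a2: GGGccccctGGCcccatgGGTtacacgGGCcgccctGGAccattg
Col9a1: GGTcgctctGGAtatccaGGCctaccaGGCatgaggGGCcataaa
Col10a1: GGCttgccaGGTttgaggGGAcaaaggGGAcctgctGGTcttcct
Col27a1: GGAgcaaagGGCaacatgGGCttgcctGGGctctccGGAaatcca
These stretches open at residue 201 of the *Col2a1* product, 527 of *Col11a1*, 401 of *Col11a2*, 418 of *Col9a1*, 302 of *Col10a1* and 673 of *Col27a1*. *Col10a1* also differed from the other members in its gene structure, with 3 exons against 32 to 67 in the longest coding transcripts of the rest.

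The libraries held 17114101 to 18602482 counts each. *Gli1* itself had 86, 104 and 152 counts in Gli1+ replicates 1 to 3 and 14, 19 and 46 counts in the Gli1- libraries, so the fractions went with their labels, although *Gli1* RNA was not absent from the Gli1- cells. Some libraries stood apart. Gli1+ replicate 1 had counts for 15000 genes, whereas the others had them for 20666 to 23360. Gli1- replicate 1 held leukocyte RNA although the sort left out CD45+ cells. Levels are given as CPM, counts scaled to libraries of 1 common size. The 7 neutrophil markers summed to 3492 CPM in it against 9.89 to 64.7 CPM elsewhere, and the 8 macrophage markers to 882.9 CPM against 25.2 to 131 CPM. Markers of lymphocytes, red cells, endothelium, muscle and fat summed to at most 46.1 CPM in any library and those of bone cells to at most 45.4 CPM. The 8 chondrocyte markers summed to between 3785 and 7132 CPM in every library, with 1 of them at 0 in Gli1+ replicate 1 and none at 0 elsewhere, and the 8 fibroblast and perichondrium markers to between 1710 and 7244 CPM.

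Replicate 2 stood apart in the collagens of both fractions. The 8 genes took 2.11% of all counts in Gli1+ replicate 2 and 2.44% in Gli1- replicate 2. In the other Gli1+ libraries they took 0.569% and 0.704%, and in the other Gli1- libraries 0.712% and 0.555%. The fractions overlapped, with means of 1.13% ± 0.855 (SD, n = 3) in Gli1+ and 1.24% ± 1.04 (SD, n = 3) in Gli1- cells, and the difference was within the spread between libraries (2-sided exact permutation test, p = 0.8; 3 against 3 cannot go below 0.1). Its sign rested on single libraries: the Gli1+ share was the higher by 0.17 percentage points without Gli1+ replicate 1, by 0.11 without Gli1+ replicate 3 and by 0.49 without Gli1- replicate 2.

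No member differed between the fractions by the main test. The edgeR quasi-likelihood test, with Benjamini-Hochberg adjustment over all 14801 genes and a required log2 fold change beyond 1, called 0 of the 8 genes, and it called 0 genes in all (0% of those tested). At an unadjusted p under 0.05 there were 514 genes (3.47%), and none of the 8 was among them. *Gli1*, the gene by which the cells were sorted, was not called either. Its log2 fold change was 2.09 ± 0.68 (SE; edgeR unadjusted p = 0.0152, adjusted p = 0.9999). A gene without a call here may thus still differ between the fractions. DESeq2 without a block called 30 genes and no member, but it gave *Col10a1* (log2 fold change -2.47) no p. That gene was thus not tested by that fit. The levels of the 2 fractions overlapped in all 8 genes, against 4.45% of all genes for which every Gli1- library lay above every Gli1+ library. The estimates of 7 members were below 0 and the median log2 fold change was -0.28, beside 0.0013 for all genes tested. That median moved from -1.18 without Gli1+ replicate 2 to 0.97 without Gli1- replicate 2. Intervals were wide, and a 2-fold change in either direction lay inside the 95% interval of every member other than *Col10a1* and *Col27a1*, whose intervals held a fall of that size but not a rise.

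**Figure D1:**
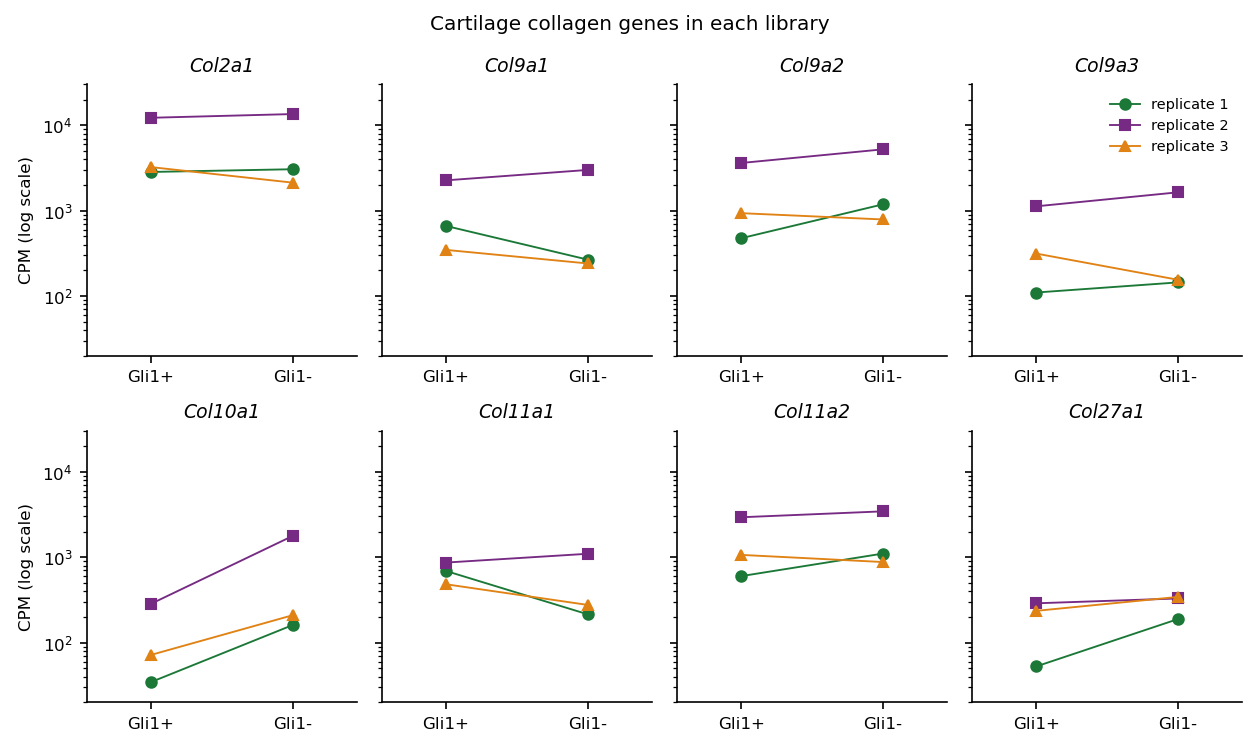
Level of each gene in CPM (log axis) in the Gli1+ and Gli1- libraries, with a line joining the libraries that share a replicate number. Replicate 2 (squares) is the highest library of its fraction in all genes other than *Col27a1*, and only the *Col10a1* and *Col27a1* lines rise from Gli1+ to Gli1- in all 3 replicate numbers.

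*Col2a1* was the most abundant member and ranked 7 among all genes tested by mean CPM. The gene (ENSMUSG00000022483) lies on the minus strand at chr15:97975602-98004695 of mm10. Its level, in CPM scaled by TMM factors as for all single genes, was 2842, 12240 and 3240 CPM in Gli1+ replicates 1 to 3 and 3060, 13530 and 2130 CPM in Gli1- replicates 1 to 3. Both replicate 2 libraries were high, by 4.02-fold and 5.22-fold over the mean of the other libraries of their fraction, and the fractions were otherwise intermixed. The log2 fold change was -0.03 ± 0.91 (SE; 95% interval -2.13 to 2.07; edgeR adjusted p = 0.9999). Its sign changed with scaling by total count (0.04) and when single libraries were left out, to 1.21 without Gli1- replicate 2, 0.29 without Gli1+ replicate 1 and 0.27 without Gli1+ replicate 3. Counts per gene do not separate the splice forms of *Col2a1*, of which 1 belongs to prechondrocytes and the other to mature chondrocytes.

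The type XI chains had contrasting patterns. *Col11a2* (ENSMUSG00000024330; plus strand, chr17:34039437-34066685) followed *Col2a1*, with 600.8, 2936 and 1065 CPM in Gli1+ replicates 1 to 3 and 1104, 3443 and 878.4 CPM in the Gli1- libraries. *Col11a1* (ENSMUSG00000027966; plus strand, chr3:114030540-114220718) varied less in Gli1+ cells, with 690.2, 866.1 and 482.6 CPM there and 214.3, 1098 and 276.3 CPM in Gli1- cells. In replicates 1 and 3 it was higher in Gli1+ cells, and in replicate 2 lower. The log2 fold change was -0.24 ± 0.78 (SE) for *Col11a2* and 0.36 ± 0.69 for *Col11a1*, the only member estimated above 0, and the adjusted p was 0.9999 for both by edgeR. *Col11a2* was at 0.60 without Gli1- replicate 2 and 0.13 without Gli1+ replicate 1, and *Col11a1* was at -0.02 without Gli1- replicate 1.

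Type IX chains were also spread far more between replicate numbers than between fractions. *Col9a1* (ENSMUSG00000026147; plus strand, chr1:24177610-24252684) stood at 663.5, 2268 and 348 CPM in Gli1+ replicates 1 to 3 and at 267.3, 3004 and 241.3 CPM in the Gli1- libraries. *Col9a2* (ENSMUSG00000028626; plus strand, chr4:121039385-121055322) had 476.4, 3619 and 936.4 CPM in Gli1+ cells and 1189, 5229 and 790.3 CPM in Gli1- cells. *Col9a3* (ENSMUSG00000027570; plus strand, chr2:180597790-180622189) had 110.4, 1126 and 315.3 CPM in Gli1+ cells and 145, 1643 and 155.5 CPM in Gli1- cells. The replicate 2 library was the highest of its fraction for each chain, and in Gli1- cells it exceeded the mean of the other libraries by 11.8-fold for *Col9a1*, 5.29-fold for *Col9a2* and 10.9-fold for *Col9a3*.

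The log2 fold changes of these chains were -0.10 ± 1.10 (SE), -0.52 ± 0.96 and -0.32 ± 1.13 for *Col9a1*, *Col9a2* and *Col9a3*, with an edgeR adjusted p of 0.9999 for each. Within replicate numbers none of the 3 genes moved the same way throughout. *Col9a1* was higher in Gli1+ cells by 1.31 and 0.53 (log2) in replicates 1 and 3 and lower in replicate 2, whereas *Col9a2* was lower in replicates 1 and 2 and higher by 0.24 in replicate 3. Without Gli1- replicate 2 the estimates turned to 2.08, 0.73 and 1.76, and without Gli1+ replicate 1 those of *Col9a1* and *Col9a3* turned to 0.15 and 0.14, as did that of *Col9a1* without Gli1+ replicate 3, to 0.32. *Col9a1* also has a start site inside the gene that makes a short form, and counts per gene do not separate the forms. *Col9a3* shares 234 exon bases at its end with *Tcfl5* on the opposite strand, which had 223 to 589 counts per library, and whether the counting used strand was not given in the sources used here.

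*Col10a1* was the member furthest from no change, and it was lower in Gli1+ cells in all 3 replicate numbers. The gene (ENSMUSG00000039462) lies on the plus strand at chr10:34389981-34397085. Its level was 34.6, 284.9 and 71.95 CPM in Gli1+ replicates 1 to 3, from 654, 4640 and 1370 counts. In Gli1- replicates 1 to 3 it was 161.3, 1781 and 210 CPM, from 3119, 26853 and 3969 counts. Gli1+ replicate 2 lay above Gli1- replicates 1 and 3, so the fractions overlapped, but each Gli1+ library lay below its Gli1- counterpart, with log2 differences of -2.22, -2.64 and -1.54. *Col10a1* had the widest range of the 8 genes, 51.5-fold from the lowest to the highest library.

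*Col10a1* averaged 131 CPM with an SD of 135 over the 3 Gli1+ libraries, and 717 CPM with an SD of 921 over the 3 Gli1- libraries. The log2 fold change was -2.46 ± 1.13 (SE; 95% interval -5.06 to 0.15), with an unadjusted p of 0.0612 and an adjusted p of 0.9999 by edgeR. It stayed negative with each library left out in turn. Leaving out 1 library of the high replicate 2 pair moved it most, to -0.53 without Gli1- replicate 2 and -3.76 without Gli1+ replicate 2, and it was -1.83 without both libraries of replicate 2. Without Gli1- replicate 1, the library with leukocyte RNA, it was -2.93.

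With the replicate number as a block, which compares the fractions within numbers, the result for *Col10a1* depended on the tool. By edgeR with the block the log2 fold change was -2.14 with an adjusted p of 0.307, and the test called no gene. By DESeq2 with the block it was -2.15 with an adjusted p of 6.28e-07, and *Col10a1* was the only 1 of the 8 among 313 genes called lower in Gli1+ cells (2.11% of all genes). Without the block the same tool gave *Col10a1* no p, so this call has no counterpart there. *Col10a1* was also called in the DESeq2 block fit without replicate 1 (-2.11, adjusted p = 2.06e-12), without replicate 2 (-1.90, adjusted p = 0.0291) and without replicate 3 (-2.42, adjusted p = 0.000851). These fits were chosen after the data were seen, hold fewer libraries and share them, so their calls are not independent of each other. Beside the block they leave few libraries from which to measure spread. Their adjusted p-values measure it poorly and are not read as added support. edgeR without the filter on low counts also called *Col10a1*, at -2.45 with an adjusted p of 0.0206, as 1 of 247 genes called lower (0.866% of the genes tested there). Over the alternatives that gave *Col10a1* an adjusted p, the value ran from 2.06e-12 to 1.

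Lower in Gli1+ cells in all 3 replicate numbers were *Col10a1* and *Col27a1*, 2 of the 8, against 19.8% of all genes. *Col27a1* (ENSMUSG00000045672; plus strand, chr4:63214004-63334991) was the least abundant per length and the only member that did not peak in replicate 2 of both fractions. Its level was 52.7, 289 and 235.8 CPM in Gli1+ replicates 1 to 3 and 189.2, 329.3 and 343.4 CPM in the Gli1- libraries. Gli1+ replicate 1, the library with counts for the fewest genes, was low, with a log2 difference of -1.84 from its counterpart. The differences in replicates 2 and 3 were -0.19 and -0.54. Gli1+ replicate 3 lay above Gli1- replicate 1, so the shared direction of *Col27a1* depends on how the libraries are paired. The log2 fold change was -0.58 ± 0.63 (SE; edgeR adjusted p = 0.9999) and ranged from -0.9996 to -0.15 with libraries left out. The value of -0.15 was the one without Gli1+ replicate 1.

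**Figure D2:**
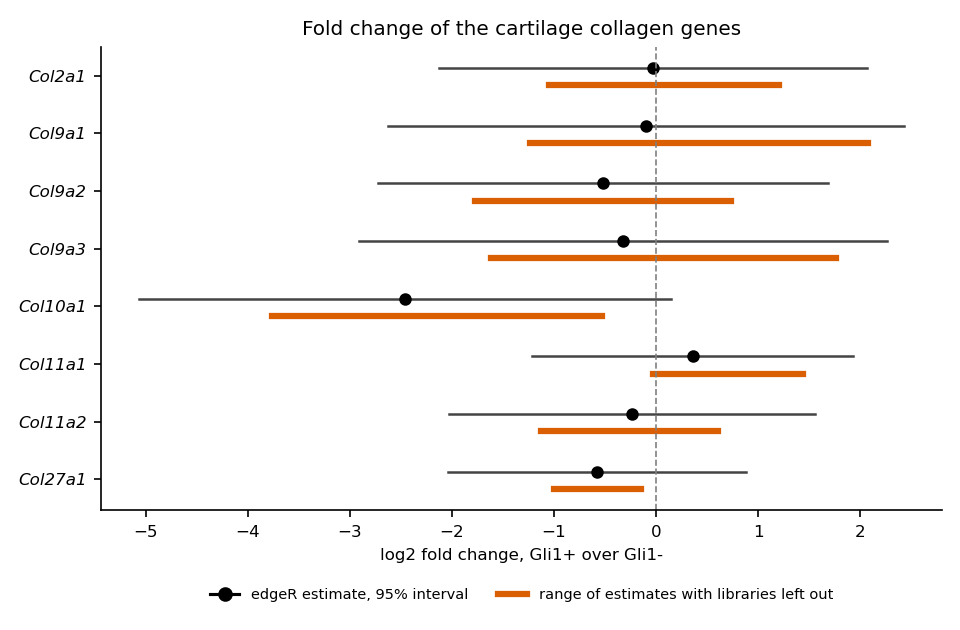
Log2 fold change of Gli1+ over Gli1- cells for each gene (points, edgeR) with its 95% interval (thin lines) and the lowest to highest estimate when libraries were left out (thick lines). All 8 intervals hold 0, and the thick lines of *Col10a1* (-3.76 to -0.53) and *Col27a1* (-0.9996 to -0.15) stay below it.

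Since replicate 2 raised nearly all members, the chains were next compared within each library as ratios of counts per kilobase (kb), which do not depend on how libraries are scaled. The *Col10a1* to *Col2a1* ratio was 0.0360, 0.0688 and 0.0656 in Gli1+ replicates 1 to 3. In Gli1- replicates 1 to 3 it was 0.156, 0.389 and 0.291. Each Gli1- library lay above each Gli1+ library, which held for 3.95% of all genes when set against *Col2a1* in the same way. The ratio was 4.77-fold lower in Gli1+ cells on the log scale average, a log2 difference of -2.26 (2-sided exact permutation p = 0.1, the lowest value open to 3 against 3). Within replicate numbers the log2 differences were -2.11, -2.50 and -2.15, closer to each other than the differences in CPM, and the mean stayed between -2.63 and -1.95 with each library left out. So the ratio did not rest on a single library, although the sign-flip permutation over 3 pairs cannot go below the exact p = 0.25 that it gave.

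*Col10a1* was set against the other members too, a comparison added after the values were seen. The ranges of the ratio did not overlap between the fractions for *Col2a1*, *Col9a1*, *Col9a2*, *Col9a3*, *Col11a1* and *Col11a2*, and they did for *Col27a1*. Against *Col9a2*, for instance, the ratio was 0.0718 to 0.0779 in Gli1+ and 0.134 to 0.337 in Gli1- libraries. Against *Col9a3* it was 0.281 to 0.386 and 1.34 to 1.66. These 7 ratios share *Col10a1* and are not independent of each other. Over all genes, the share with every Gli1- library above every Gli1+ library was 3.95% against *Col2a1*. That share was not worked out against the other members.

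Ratios between chains of 1 collagen were less even. *Col9a1* to *Col9a2* was 0.851, 0.383 and 0.227 in Gli1+ replicates 1 to 3 and 0.137, 0.351 and 0.187 in Gli1- replicates 1 to 3, higher in Gli1+ cells in all 3 numbers by 2.63, 0.13 and 0.28 on the log2 scale. *Col11a1* to *Col11a2* was 0.616, 0.158 and 0.243 in Gli1+ and 0.104, 0.171 and 0.169 in Gli1- cells. *Col9a1* to *Col9a3* was 4.57, 1.53 and 0.839 in Gli1+ and 1.40, 1.39 and 1.18 in Gli1- cells. In all 3 ratios Gli1+ replicate 1, the library with counts for the fewest genes, was the highest library and the rest overlapped. The log2 differences of the fraction means were 1.01, 0.99 and 0.45 (exact permutation p = 0.2, 0.3 and 0.7), and without Gli1+ replicate 1 they were 0.50, 0.44 and -0.22.

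*Col9a2* to *Col9a3* was 5.37, 4.0 and 3.70 in Gli1+ replicates 1 to 3 and 10.2, 3.96 and 6.33 in the Gli1- libraries, a log2 difference of -0.56 (exact permutation p = 0.3). Gli1- replicate 1, the library with leukocyte RNA, was the highest, and the difference was -0.22 without it. In no library did the 3 partner chains of type IX collagen stand in 1 to 1 ratios by counts per kb of gene length.

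Against *Col2a1*, the other fibril chains overlapped between the fractions. *Col11a2* to *Col2a1* was 0.286, 0.325 and 0.445 in Gli1+ and 0.488, 0.344 and 0.558 in Gli1- replicates 1 to 3, lower in Gli1+ cells in 3 of 3 numbers (log2 difference -0.39, exact permutation p = 0.2). *Col27a1* to *Col2a1* was 0.0132, 0.0168 and 0.0517 in Gli1+ and 0.0439, 0.0173 and 0.115 in Gli1- cells, also lower in 3 of 3 (-0.98, exact permutation p = 0.4), with a log2 difference of -0.04 in replicate 2. The ratios of *Col9a1* and *Col11a1* to *Col2a1* differed by 0.36 and 0.60 (exact permutation p = 0.6 and 0.3) and did not move the same way in every number. Over the 9 ratios fixed for the comparison, 8 overlapped between the fractions and 1, *Col10a1* to *Col2a1*, did not.

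**Figure D3:**
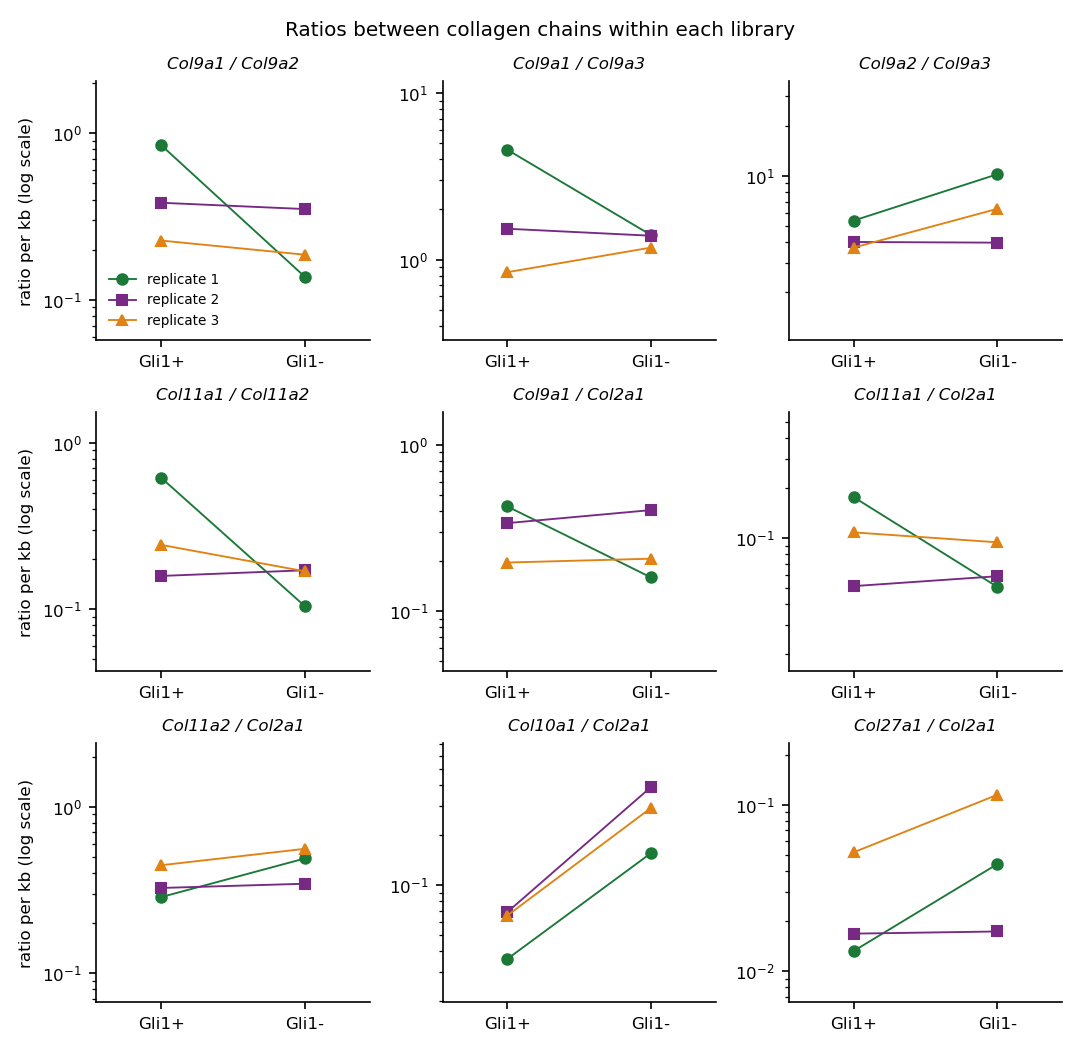
Ratio of counts per kb between pairs of chains in each library (log axes, each spanning the same number of folds), with lines joining replicate numbers. Only *Col10a1* to *Col2a1* has all Gli1- libraries (0.156 to 0.389) above all Gli1+ libraries (0.0360 to 0.0688), and Gli1+ replicate 1 sets the top of the ratios with *Col9a1* and *Col11a1* as numerator.

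The make-up of the set was then taken as the share of each gene among the summed counts per kb of all 8. *Col10a1* made up 1.42%, 2.37% and 2.21% in Gli1+ replicates 1 to 3 and 4.91%, 10.6% and 8.21% in Gli1- replicates 1 to 3. *Col9a2* made up 19.8%, 30.4% and 29.1% in Gli1+ and 36.6%, 31.5% and 31.2% in Gli1- cells. *Col2a1* made up 39.5%, 34.5% and 33.8% in Gli1+ and 31.5%, 27.3% and 28.2% in Gli1- cells. These 3 shares did not overlap between the fractions, the first and second being lower and the third higher in Gli1+ cells. When every gene was set against the same sum, 2.44% did not overlap with Gli1- above and 0.946% with Gli1+ above. Shares of a whole cannot move independently, and the gaps for *Col9a2* and *Col2a1* were under 3 percentage points between their nearest libraries. These were at 30.4% in Gli1+ and 31.2% in Gli1- cells for *Col9a2*, and at 33.8% and 31.5% for *Col2a1*.

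The shares of the other members overlapped. In mean ± SD (n = 3), *Col9a1* made up 11.7% ± 5.11 in Gli1+ and 7.30% ± 3.28 in Gli1- cells. *Col11a2* was at 12.5% ± 2.18 and 13.5% ± 3.56. *Col9a3*, *Col11a1* and *Col27a1* averaged 6.39%, 4.13% and 0.947% in Gli1+ and 5.49%, 1.95% and 1.69% in Gli1- cells. The deposited gene length joins all exons of a gene, 9243 bases for *Col2a1* against 5104 in its longest coding transcript. With transcript lengths *Col2a1* averaged 46.0% and 39.3% and *Col10a1* 1.43% and 5.94% in Gli1+ and Gli1- cells, and the same 3 genes were the ones that did not overlap.

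**Figure D4:**
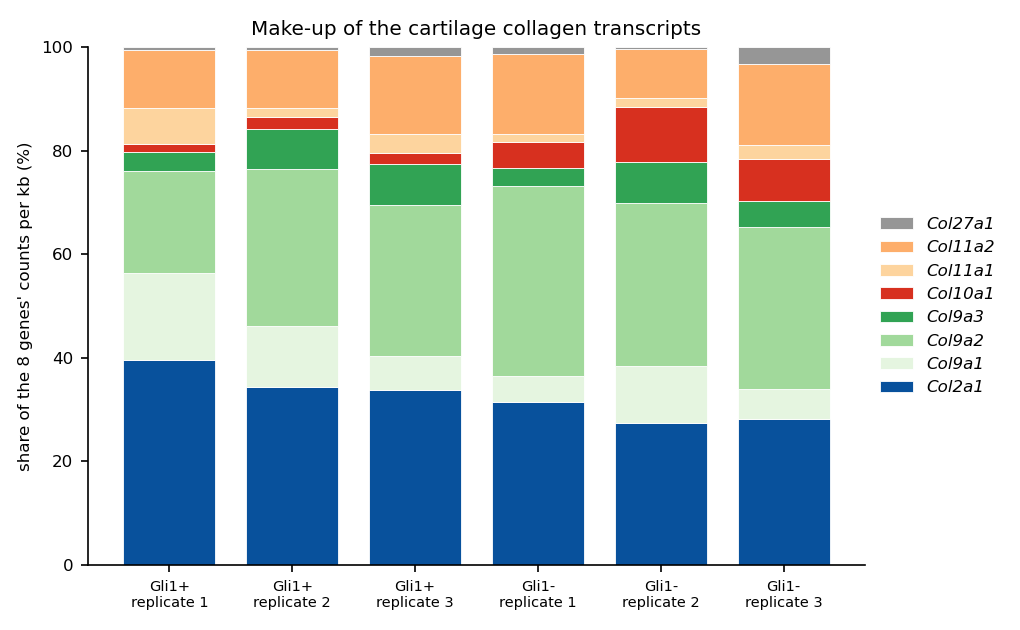
Share of each gene among the counts per kb of the 8 genes in each library, as stacked bars. *Col10a1* (red) takes 1.42% to 2.37% of the Gli1+ bars and 4.91% to 10.6% of the Gli1- bars, and *Col2a1* (blue, at the base) 33.8% to 39.5% and 27.3% to 31.5%.

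The promoter of *Col10a1* is shown because this gene stood apart from the rest. RefSeq promoter entries were found for 6 of the 8 genes, 7 promoters in all, and 4 motifs were searched on both strands in the 250 bases before each start site: TATAAA (the TATA box), ACAAAG and ACAATG (core sequences that SOX factors bind) and ACCACA (a RUNX core). In the stretch at chr10:34389731-34389980 (plus strand, GRCm38.p6), matches are in capitals.
Col10a1: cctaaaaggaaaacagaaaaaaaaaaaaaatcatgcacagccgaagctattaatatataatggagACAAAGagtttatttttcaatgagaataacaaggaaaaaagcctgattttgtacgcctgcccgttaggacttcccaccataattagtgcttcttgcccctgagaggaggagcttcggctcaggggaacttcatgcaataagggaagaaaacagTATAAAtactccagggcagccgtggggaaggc
The window held 1 match to TATAAA, which 12.4% of 32851 promoters of the same length have, and 1 to ACAAAG, which 16.5% have. TATAAA also occurred in the *Col11a2* promoter and in no other member's. ACAATG and ACCACA, found in 10.7% and 14.1% of promoters, had no match among the 7, and no matches overlapped. *Col10a1* lies inside *Nt5dc1*, a gene on the opposite strand, but shared only 18 exon bases with it, and *Nt5dc1* had 142 to 365 counts per library against 654 to 26853 for *Col10a1*.

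The other genes of the hypertrophic stage did not share the direction of *Col10a1* as a group. Of 15 such genes tested, 9 were above 0 and 6 below, with a median log2 fold change of 0.47 beside 0.0013 for all genes, and edgeR called none. *Mmp13*, the collagenase of hypertrophic cartilage, had 5328, 2861 and 4859 CPM in Gli1+ and 456.8, 591.8 and 607.1 CPM in Gli1- replicates 1 to 3. Its 3 Gli1+ values all exceeded the Gli1- values, opposite in direction to *Col10a1*. The share of all genes with every Gli1+ library above every Gli1- library was not worked out. The log2 fold change of *Mmp13* was 2.98 ± 0.54 (SE; edgeR unadjusted p = 0.000528, adjusted p = 0.9999). *Spp1*, which codes for osteopontin, had 1239, 5143 and 1628 CPM in Gli1+ and 1603, 7133 and 2919 CPM in Gli1- cells, lower in Gli1+ cells in each number with a log2 fold change of -0.54. *Vegfa*, the angiogenic factor, and *Runx3*, a factor of chondrocyte maturation, were at 0.47 and 1.11.

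The SOX and other regulators of cartilage collagen genes were split, 5 above and 5 below 0 among 10, with a median of -0.07. *Sox9*, the main activator of *Col2a1*, had 241.2, 223 and 468.6 CPM in Gli1+ and 414.9, 365.2 and 579.7 CPM in Gli1- replicates 1 to 3. It was lower in Gli1+ cells in each number, with a log2 fold change of -0.54 ± 0.47 (SE), but unlike *Col2a1* it was not raised in replicate 2. *Sox5*, its partner, was at -0.18, *Trps1*, a GATA-type repressor, at 0.64 and *Wwp2*, a ubiquitin ligase whose gene hosts a cartilage miRNA, at -1.21. None of the 10 was called by edgeR, and 1 in each direction had an unadjusted p under 0.05.

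Other fibrillar and fibril-associated collagens were mostly estimated below 0. Of 14 tested, 11 were below 0, 3 of them at an unadjusted p under 0.05, and 1 gene above 0 also had such a p. The median was -0.998, but edgeR called none. *Col1a2* and *Col3a1*, chains of the fibrous tissue collagens, were at -1.50 and -1.25 and lower in 3 of 3 numbers. *Col5a3*, at 2.23 with an unadjusted p of 0.0325 by edgeR, was higher in Gli1+ cells in 3 of 3 numbers. For this gene and those below, the share of all genes higher in 3 of 3 was not worked out. *Col12a1*, at 1.17, was higher in only 1 of 3. It had 1003 CPM in Gli1+ replicate 1 against 146.8 and 193.8 CPM in Gli1+ replicates 2 and 3. Of the fibroblast markers, *Col1a2* among them, 7 of 8 were also below 0, with a median of -1.40. Their part in the values of the cartilage collagens was not tested.

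The machinery that folds, trims, binds and degrades collagens gave no calls by edgeR. Among 18 genes of folding and secretion 11 were above 0 and the median was 0.12. *Serpinh1*, the collagen chaperone HSP47, was at -0.17, *P4hb* and *P4ha1*, subunits of prolyl hydroxylase, at -0.12 and -0.13, and *Plod3*, a lysyl hydroxylase, at 0.30. Of 13 genes of procollagen processing and crosslinking 5 were above 0, with a median of -0.19. Here the lysyl oxidases *Loxl2* (2.002) and *Loxl4* (0.85) were higher in Gli1+ cells in 3 of 3 numbers, while *Lox* and *Loxl3* were at -0.03 and 0.08.

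Collagen receptors were split 3 above and 4 below 0, with a median of -0.05. Of the 7 receptors, 3 had every Gli1- library above every Gli1+ library, which held for 4.45% of all genes. The reverse held for 1 receptor, and its share over all genes was not worked out. Among the 3 with Gli1- above was *Itga10*, the chondrocyte integrin chain that binds type II collagen, at -1.19. *Itgb1*, *Ddr2* and *Ddr1* were at 0.23, 0.26 and -0.05. Of 10 genes of collagen degradation 6 were below 0, with a median of -0.23, and beside *Mmp13* the inhibitors *Timp1*, *Timp2* and *Timp3* were at 0.55, -0.76 and 0.40. Of the chondrocyte markers 5 of 8 were below 0, with *Comp* at -1.52 and *Acan* at 0.94, lower and higher in Gli1+ cells in 3 of 3 numbers.

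The genes most like *Col2a1* and *Col10a1* were found by Pearson's r of log2 CPM over the 6 libraries, among 8443 genes with a mean of at least 10 CPM. These values describe the pattern only, since the replicate 2 libraries stood apart and largely set them. Genes picked in this way share the pattern by selection. Most like *Col2a1* were *Psmb1* (0.998), a proteasome subunit, *Matn3* (0.996), a cartilage matrilin, *Gm15501* (0.996), *Anapc10* (0.993), a subunit of the anaphase-promoting complex, and *Rps4x* (0.991), a ribosomal protein. *Matn3* stood at 16.1, 156 and 17.8 CPM in Gli1+ and 16.6, 141 and 11.5 CPM in Gli1- replicates 1 to 3, so that replicate 2 was high in it as in *Col2a1*. Most like *Col10a1* were *Gpx3* (0.999), a secreted glutathione peroxidase, *Sdcbp* (0.994), which codes for syntenin, *Il11ra1* (0.992), the interleukin-11 receptor, *Smim14* (0.991) and *Klf9* (0.990), a transcription factor. *Gpx3* had 259.1, 703.9 and 347.7 CPM in Gli1+ and 545.6, 1636 and 625.8 CPM in Gli1- cells, below its counterpart in each Gli1+ library as *Col10a1* was. Among the members themselves *Col9a2* and *Col11a2* ran closest together, with an r of 0.997 over the 6 libraries, and *Col11a1* and *Col27a1* furthest apart, at -0.05.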

How the data were processed

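The authors deposited 1 table of counts per gene for 6 libraries, with gene names, coordinates and gene lengths. Per the labels, poly-A RNA was reverse transcribed with random hexamers, and the submitters' processing notes name HISAT2 2.0.5, featureCounts 1.5.0-p3 and mm10. Strand setting and annotation release were not given in the sources used here. Members and gene lists were chosen with earlier results of these data known.

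Genes with low counts were removed with filterByExpr (minimum count 10), libraries were scaled by TMM, and the fractions were compared by the edgeR 4.0.16 quasi-likelihood test without a block, as no block is named in the study's methods. A gene was called at an adjusted p under 0.05 and a log2 fold change beyond 1. Log2 CPM used a prior count of 2. Ratios used counts per kb and exact permutation tests (scipy 1.17.1). Alternatives were DESeq2 1.42.0, limma-voom (limma 3.58.1), other scalings, no filter, the replicate block and libraries left out.

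The study states that both fractions came from the same mice, but not that library numbers mark mice. Deviations of same-numbered libraries from the fraction means correlated at 0.223, 0.720 and 0.471 over genes for numbers 1 to 3, and libraries of 1 number were treated as pairs on that basis. Gli1+ replicate 1 correlated somewhat more with Gli1- replicate 3 (0.274) than with its own number, and Gli1+ replicate 3 with Gli1- replicate 1 at 0.107, so numbers 1 and 3 are set apart from each other less clearly than number 2. These correlations come from the same counts as the block fits and the comparisons within numbers. Pairing by number therefore remains an assumption. Besides the members, the text names the 5 genes most like *Col2a1* and *Col10a1*, at most the 4 most abundant of each of 7 pathway lists and at most 2 of each of 10 marker lists. Transcript structures and lengths came from GENCODE M21, which shares its build with mm10, and promoters from RefSeq.

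The depth of 17114101 to 18602482 counts per library left each member at 654 counts or more, so spread between libraries rather than counting set the precision. Intervals given here come from the fits.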

Additional observations from a re-analysis of the deposited data

How the results depend on the processing

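With 3 libraries a fraction, the edgeR biological coefficient of variation was 0.662, or 0.466 with the replicate block, and intervals spanned several folds. The count of genes called was 0 by edgeR, also under the other scalings, by limma-voom, with the block and with libraries left out. It was 30 by DESeq2, 267 by edgeR without the filter (20 higher and 247 lower in Gli1+ cells), 428 by DESeq2 with the replicate block (115 higher and 313 lower), and 781, 174 and 71 by that fit without replicates 1, 2 and 3, a setting chosen after seeing the data. The number of members called was 1, *Col10a1*, in the fit without the filter and in all 4 DESeq2 block fits, and 0 elsewhere. Its log2 fold change was -2.45 without the filter, -2.15 by DESeq2 with the block, and -2.11, -1.90 and -2.42 by that fit without replicates 1, 2 and 3. DESeq2 without the block gave *Col10a1* neither a p nor an adjusted p. No other member was called under any alternative, and the block changed no other call.

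Estimates near 0 changed sign, and the cause was not tested. *Col2a1* was at 0.0448 with scaling by total count, 0.11 by limma-voom, 0.12 by edgeR with the replicate block, 0.11 by DESeq2 with the block, and 0.22 and 0.23 by that fit without replicates 1 and 2. *Col9a1* was at 0.0384 with scaling by total count, 0.46 by limma-voom, 0.48 by edgeR with the block, 0.47 by DESeq2 with the block, and 0.0493, 0.90 and 0.46 by that fit without replicates 1, 2 and 3. *Col9a3* was at 0.0143 by limma-voom, 0.0178 by edgeR with the block, 0.0066 by DESeq2 with the block, and 0.22 and 0.30 by that fit without replicates 1 and 2. *Col11a2* was at 0.0127 by DESeq2 with the block without replicate 1. With libraries left out in turn or by number, log2 fold changes ran from -1.05 to 1.21 for *Col2a1*, -1.23 to 2.08 for *Col9a1*, -1.78 to 0.73 for *Col9a2*, -1.62 to 1.76 for *Col9a3*, -3.76 to -0.53 for *Col10a1*, -0.0332 to 1.44 for *Col11a1*, -1.13 to 0.60 for *Col11a2* and -0.9996 to -0.15 for *Col27a1*. The difference in the members' share of counts ran from -0.60 to 0.49 percentage points, and the *Col9a1* to *Col9a3* ratio from -0.22 to 1.00 (log2). The other 8 ratios kept their direction under each alternative run. For a ratio, the mean within replicate numbers equals the difference of the fraction means. Leaving out the gene length hardly alters that difference either. Only the runs with libraries left out could thus have changed a direction. *Col27a1* kept its direction in all 21 alternatives.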
